A study of Mus musculus with 2 samples.

Results

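Pi16 FAPs are the cells described here: fibro-adipogenic progenitors, the mesenchymal cells that lie between muscle fibres, in which at least 2 unique molecules (UMIs) of Pi16 were read. They were chosen from droplet single-cell RNA libraries of mouse quadriceps taken 9 h or 2 h after injury. A cell was kept with at least 200 genes, at least 500 UMIs and at most 20% mitochondrial UMIs. It passed as a FAP with at least 1 Pdgfra UMI, at least 10 Dcn UMIs, at most 1 UMI of Ptprc and Cdh5 together, and a UMI in fewer than 3 of 8 tenocyte genes. The Pi16 FAPs were 1010 of the 3275 FAPs so gated, of 13047 kept cells and of 14519 deposited barcodes. At 9 h they were 441 of 1676 FAPs (26.3%, exact binomial 95% interval 24.2 to 28.5%), and at 2 h 569 of 1599 FAPs (35.6%, 33.2 to 38.0%). The other FAPs, with 0 or 1 Pi16 UMI, are called Pi16-low FAPs here, 1235 cells at 9 h and 1030 at 2 h.

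The 9 h and the 2 h group were each a single library, both from wild-type C57BL/6J mice whose quadriceps had been injected with 100 µl of 1.2% w/v barium chloride, a salt that kills muscle fibres. Mononuclear cells had been frozen and thawed before loading on the 10x Genomics v3.1 platform, with 5000 cells aimed at per library. Neither an uninjured library nor a further library at either time was analysed here, so no difference between the times could be set against the spread between animals. The series asks about the chemokine CCL2 made by FAPs.

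Pi16 (mm10 chromosome 17, 29317680 to 29330593, plus strand) encodes a secreted or surface-bound peptidase inhibitor, and together with the surface peptidase gene Dpp4 it marks fibroblasts of the adventitia and fascia, the connective sheaths around vessels and muscle. Such cells have been described in several mouse tissues as a reserve population from which more specialised fibroblasts can arise. Parenchymal FAPs, which lie among the muscle fibres, are known instead for genes such as Cxcl14, Smoc2, Lum and the basement membrane collagen gene Col15a1. After injury FAPs as a whole take part in calling in leukocytes, in clearing debris and in laying down matrix.

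The 9 h library kept 8147 cells with 35127600 UMIs and the 2 h library 4900 cells with 27598413 UMIs. Pi16 FAPs had a median of 9659 UMIs and 2877 genes per cell at 9 h and 8956 UMIs and 2687 genes at 2 h. Their summed counts were 4645974 and 5282567 UMIs. Pi16-low FAPs were somewhat shallower, with medians of 8516 UMIs at 9 h and 7955 at 2 h. The libraries shared 20 barcodes, of which 1 belonged to a Pi16 FAP at 9 h and 0 at 2 h. CPM, the unit of all levels, is the summed UMIs of a gene over the cells of 1 group at 1 time, per 1000000 UMIs of those cells. Intervals in brackets are exact 95% intervals of the counts (Poisson for a level, conditional binomial for a ratio). They cover counting error only and leave out the spread between cells and between animals.

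All 6 markers of the label were higher in Pi16 FAPs than in Pi16-low FAPs at both times, and 4 of the 6 were at least 2-fold lower in Pi16 FAPs at 9 h than at 2 h. Pi16 itself, which chose the cells, was at 1678 CPM in Pi16 FAPs at 9 h and 2820 at 2 h. Dpp4 was at 82.9 CPM (74.8 to 91.6) in Pi16 FAPs at 9 h and 311 (296 to 326) at 2 h, and in Pi16-low FAPs at 9.20 and 51.7. Cd248, the gene of the surface glycoprotein endosialin, was at 61.3 CPM at 9 h and 481 at 2 h in Pi16 FAPs, 7.84-fold lower at 9 h (6.94 to 8.90), and at 5.45 and 147 in Pi16-low FAPs. The gap between Pi16 and Pi16-low FAPs was thus present at each time, while the level of the marker moved with time in both.

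Cd55, which encodes a complement inhibitor, was at 153 CPM at 9 h and 674 at 2 h in Pi16 FAPs, against 26.9 and 165 in Pi16-low FAPs. The guidance factor gene Sema3c had 82.9 CPM at 9 h and 607 at 2 h in Pi16 FAPs, 7.33-fold lower at 9 h (6.59 to 8.16), and at 23.8 and 102 in Pi16-low FAPs. Efemp1, which encodes the elastic fibre protein fibulin-3, kept closest to its 2 h level, with 420 CPM (402 to 439) at 9 h and 589 (568 to 610) at 2 h in Pi16 FAPs, against 75.8 and 166 in Pi16-low FAPs. Counted cell by cell, at least 3 of the 5 markers beside Pi16 had a UMI in 56.0% of Pi16 FAPs at 9 h and 81.5% at 2 h, and in 4.78% and 32.0% of Pi16-low FAPs. With every cell thinned to 2000 UMIs these shares were 10.9% and 54.1% in Pi16 FAPs, and 0.245% and 9.99% in Pi16-low FAPs. A gate on 3 of these 5 markers in place of Pi16 took 18.3% of FAPs at 9 h and 49.7% at 2 h, so the size of the population at each time depended on the marker used.

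**Figure D1:**
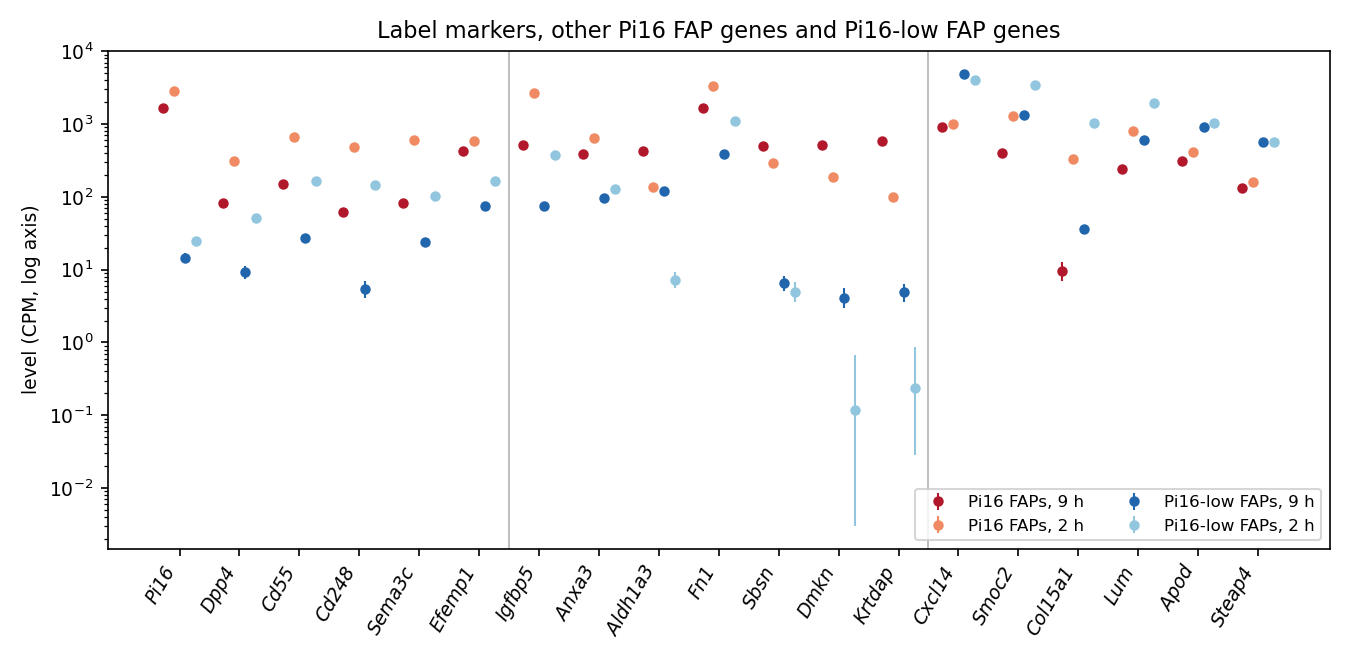
Levels (CPM, log axis) of the 6 label markers (left), of other genes higher in Pi16 FAPs (middle) and of genes higher in Pi16-low FAPs (right), with 95% Poisson intervals. Points stand, from left to right, for Pi16 FAPs at 9 h and 2 h and Pi16-low FAPs at 9 h and 2 h. Cd248 in Pi16 FAPs is at 61.3 CPM at 9 h and 481 at 2 h, while Cxcl14 is at 919 and 1006 there and at 4935 and 3993 in Pi16-low FAPs.

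The threshold of 2 UMIs cut through a continuous range. Cells with exactly 2 Pi16 UMIs numbered 54 at 9 h and 67 at 2 h, and cells just outside, with 1 UMI, 153 and 208. In cells with 2 UMIs Efemp1 was at 282 CPM at 9 h and 218 at 2 h, and in cells with 1 UMI at 164 and 181. Free RNA also reached the droplets: of neutrophil-type leukocytes, which should lack Pi16, 1.06% (0.705 to 1.53%) had at least 2 Pi16 UMIs at 9 h and 5.43% (4.36 to 6.67%) at 2 h, at median depths of 1789 and 2092.5 UMIs. With a minimum of 20 Pi16 UMIs, reached by 130 Pi16 FAPs at 9 h and 240 at 2 h, the same shares of neutrophil-type cells were 0.113% and 0.128%. How many cells near the threshold were Pi16 FAPs through free RNA was not tested.

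Sbsn, Dmkn and Krtdap were among the genes with the largest gap to Pi16-low FAPs. All were higher in Pi16 FAPs at 9 h than at 2 h, whereas the 6 label markers were all lower. They encode small secreted proteins known best from the skin (suprabasin, dermokine and keratinocyte differentiation-associated protein). Sbsn was at 506 CPM (485 to 526) in Pi16 FAPs at 9 h and 292 (278 to 307) at 2 h, and at 6.48 and 5.01 in Pi16-low FAPs. Dmkn was at 520 (499.9 to 542) and 187 (176 to 199) in Pi16 FAPs, and at 4.13 and 0.119 in Pi16-low FAPs, the last being 1 UMI. Krtdap reached 583 CPM (561 to 605) at 9 h and 99.2 (90.9 to 108) at 2 h in Pi16 FAPs, 5.88 times as high at 9 h (5.35 to 6.46), and at 4.88 and 0.238 in Pi16-low FAPs, the last being 2 UMIs. A minority of the cells carried them: after thinning to 2000 UMIs, 23.5% (19.6 to 27.7%) of Pi16 FAPs had a Krtdap UMI at 9 h and 10.3% (7.90 to 13.1%) at 2 h, and for Sbsn 29.4% and 19.5%. In neutrophil-type cells thinned alike, Krtdap was found in 0.585% at 9 h and 0.458% at 2 h. Without thinning, 28.8% of Pi16 FAPs had a Krtdap UMI at 9 h and 17.6% at 2 h.

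The 3 genes stand next to each other on mouse chromosome 7, on the plus strand. On mm10 Sbsn runs from 30751471 to 30756134, Dmkn from 30763756 to 30781063 and Krtdap from 30787896 to 30791097. Their promoters are shown because these neighbours had the same pattern of levels. Each line gives 120 bases before the start and 10 from it, from RefSeq on GRCm38.p6, with every match to TGACTCA, the letters bound by AP-1 factors, in capitals as read on the printed strand (TGAGTCA, the match being on the reverse strand).
Sbsn, chr7:30751351-30751480: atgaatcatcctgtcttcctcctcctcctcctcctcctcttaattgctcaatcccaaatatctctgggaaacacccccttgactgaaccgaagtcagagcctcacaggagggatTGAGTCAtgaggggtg
Dmkn, chr7:30763636-30763765: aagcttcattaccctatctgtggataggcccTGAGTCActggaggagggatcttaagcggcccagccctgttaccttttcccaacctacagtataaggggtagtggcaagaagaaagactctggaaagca
Krtdap, chr7:30787785-30787914: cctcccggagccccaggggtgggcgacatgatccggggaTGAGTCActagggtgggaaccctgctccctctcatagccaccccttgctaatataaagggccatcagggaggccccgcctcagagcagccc
The match lay at -6 to 1 in Sbsn, -89 to -83 in Dmkn and -81 to -75 in Krtdap, counted from the start. All 3 listed Dmkn promoters held it, as did 1709 of the 32851 listed mouse promoters of 300 bases (5.20%), which include these. Of the other genes searched, Il6 (-249 to -243) and Gbp2 (-102 to -96) also had a match. TATAAA, the TATA box, was in the Krtdap and Cxcl3 promoters and in 13.6% of all promoters. The motifs and genes were chosen after the levels had been seen, 9 motifs in the promoters of 20 genes (17 with a listed promoter), on both strands. The other 7, forms of the kappa B, heat shock and interferon-response motifs, are not reported. A match in these letters is a description of the window and was not tested against binding.

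Beyond these neighbours, further adventitial genes were higher in Pi16 FAPs than in Pi16-low FAPs, and parenchymal genes lower. Because Pi16 chose the cells, and other genes of the same cells go with it, these differences are a description. Of 9649 genes with at least 50 UMIs at 9 h, 239 differed at least 2-fold (2.48%), of which 160 were higher in Pi16 FAPs (1.66%) and 79 lower (0.819%), on a log2 scale with 10 CPM added to each level. At 2 h, of 10011 genes, 237 differed (2.37%), 147 higher (1.47%) and 90 lower (0.899%). With TMM scaling the 9 h split was 126 higher and 119 lower. Its factors alone, before the 10 CPM were added, moved the 9 h log2 ratios by -0.17. The median over all genes, with the 10 CPM added, was -0.07 in place of 0.05. Of 33 further adventitial fibroblast genes, 21 of the 31 measured at 9 h and 21 of the 33 measured at 2 h were at least 2-fold higher and 0 lower (median log2 ratio 1.22 and 1.21, against 0.05 and 0.03 over all genes).

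Igfbp5, which encodes a secreted binder of insulin-like growth factors, was at 516 CPM in Pi16 FAPs at 9 h and 2635 at 2 h, and at 75.1 and 377 in Pi16-low FAPs. The fibronectin gene Fn1 had 1675 CPM at 9 h and 3304 at 2 h in Pi16 FAPs, against 386 and 1108. Aldh1a3, which encodes a retinoic acid-making enzyme, had its higher level at 9 h, with 420 CPM (402 to 439), against 135 (125 to 145) at 2 h in Pi16 FAPs, and with 119 and 7.27 in Pi16-low FAPs. Levels of the annexin gene Anxa3 (391 and 645, against 96.8 and 130), of Pcolce2, an enhancer of collagen processing (258 and 506, against 66.2 and 168), and of the protease gene Pcsk6 (245 and 743, against 50.6 and 260) kept the same order. Ifi27l2a, Cadm3, Plac8 and Emilin2 completed the 15 genes with the largest gaps at both times among those with at least 100 CPM in Pi16 FAPs at each time, with log2 ratios of 1.42 to 2.42 at 9 h and 1.49 to 2.37 at 2 h.

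Of 23 parenchymal FAP genes, 11 of the 22 measured at 9 h and 12 of the 22 measured at 2 h were at least 2-fold lower in Pi16 FAPs, and 0 were higher (median log2 ratio -0.98 and -1.07). Cxcl14, a chemokine gene, was at 919 CPM (891 to 947) in Pi16 FAPs at 9 h and 1006 (979 to 1033) at 2 h, against 4935 and 3993 in Pi16-low FAPs. Smoc2, a matricellular protein gene, was at 403 and 1309 in Pi16 FAPs, against 1339 and 3403. The metalloreductase gene Steap4, from outside those 23 genes, was at 134 and 161, against 561 and 564. Each of these was thus several-fold lower in the Pi16 cells at both times. Lum and Apod showed the same order, and Crispld2, Cav1, Gpm6b, Cp and Lpl completed the 10 genes with the largest gaps downward among those with at least 100 CPM in Pi16-low FAPs at each time.

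Among the Pi16 FAPs themselves these genes went with the number of Pi16 UMIs. At 9 h Dpp4 was at 36.8 CPM in the 125 cells with 2 to 4 Pi16 UMIs, 65.2 in the 186 cells with 5 to 19 and 141 in the 130 cells with 20 or more. Krtdap was at 56.1, 276 and 1378 in the same bands, and Cxcl14 at 1867, 770 and 330. At 2 h, in 154, 175 and 240 cells, Cxcl14 was at 1976, 1450 and 131, Col15a1 at 760, 366 and 56.0 and Lum at 1564, 901 and 284. The lowest band thus held much of the parenchymal transcripts, and the highest band little of them. The median depth of the bands, from the fewest to the most Pi16 UMIs, was 9576, 9292 and 10677 UMIs at 9 h and 8632.5, 8912 and 9265 at 2 h.

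**Figure D2:**
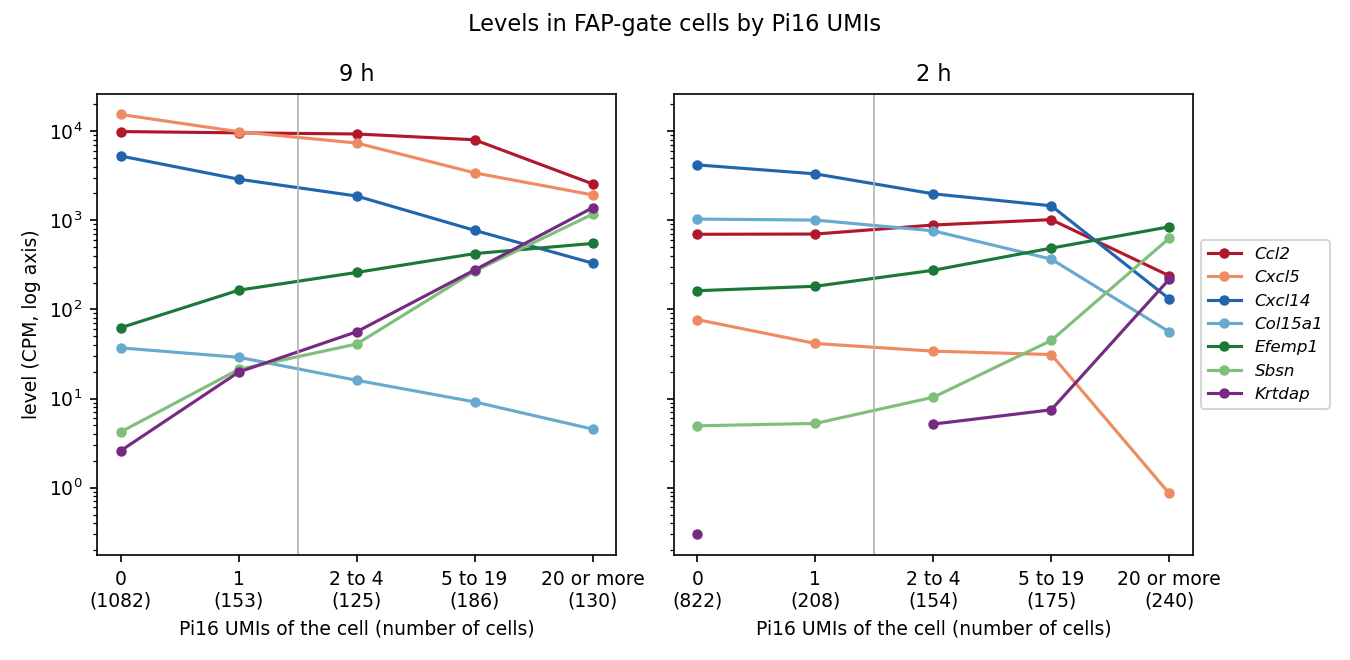
Levels (CPM, log axis) of 7 genes in FAPs by the number of Pi16 UMIs of the cell, at 9 h (left) and 2 h (right), with the number of cells in brackets. The grey line marks the threshold of 2 UMIs, and a level of 0 is not drawn. Ccl2 is at 9270 CPM at 2 to 4 UMIs and 2556 at 20 or more at 9 h, while Krtdap is at 56.1 and 1378.

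Between the times, all 4 ELR CXC chemokine genes, Ccl2, Ccl7 and 16 of 19 ribosome-building genes were at least 2-fold higher in Pi16 FAPs at 9 h than at 2 h. Most fibril collagen, basement membrane and immediate early genes and 17 of 33 adventitial genes were at least 2-fold lower. Of 9316 genes measured in Pi16 FAPs, 1481 differed at least 2-fold (15.9%), of which 705 were higher at 9 h (7.57%) and 776 lower (8.33%), with a median log2 ratio of 0.03 over all genes. In Pi16-low FAPs 1954 of 10477 genes differed (18.7%), 867 higher (8.28%) and 1087 lower (10.4%).

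Ccl2, which encodes the main ligand of the monocyte receptor CCR2 and lies on chromosome 11 of mm10 from 82035571 to 82037453 on the plus strand, had 6527 CPM (6454 to 6601) in Pi16 FAPs at 9 h and 640 (618 to 662) at 2 h, 10.2 times as high (9.84 to 10.6). In Pi16-low FAPs it was at 9827 at 9 h and 696 at 2 h. After thinning to 2000 UMIs, 59.0% (54.2 to 63.6%) of 439 Pi16 FAPs had a Ccl2 UMI at 9 h and 19.1% (16.0 to 22.6%) of 564 at 2 h, and 67.3% and 20.2% of Pi16-low FAPs. Of neutrophil-type cells, as background, 13.9% of 1025 had one at 9 h and 5.03% of 874 at 2 h, with 1620 and 692 shallower ones left out. Without thinning the shares in Pi16 FAPs were 69.6% and 28.6%. A minority of cells held most of the Ccl2 molecules: the 10% of Pi16 FAPs with the most had 56.2% of them at 9 h and 84.7% at 2 h, and the median cell had 8.45 and 0 Ccl2 UMIs per 10000.

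Ccl2 was unevenly spread along the Pi16 range. At 9 h it was at 9270 CPM in Pi16 FAPs with 2 to 4 Pi16 UMIs, 7982 with 5 to 19 and 2556 with 20 or more, and at 2 h at 883, 1015 and 238. The cells with the most Pi16 had the lowest Ccl2 at both times. Over single cells thinned to 2000 UMIs, Spearman's rho between Pi16 and Ccl2 was -0.36 at 9 h (439 cells) and -0.16 at 2 h (564 cells), and between Ccl2 and Ccl7 0.69 and 0.51. These describe cells of the same library, and UMIs of an abundant gene take up part of a fixed total. Pi16 also chose the cells, so its range is cut at 2 UMIs, and the bands rest on the same counts.

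Ccl7, the neighbouring gene and another CCR2 ligand (chromosome 11, 82045712 to 82047525, plus strand), was at 2471 CPM (2426 to 2516) in Pi16 FAPs at 9 h and 948 (922 to 975) at 2 h, 2.61 times as high, and at 4234 and 1038 in Pi16-low FAPs. Of the 7 CC chemokine genes listed, 4 were measured, Ccl2 and Ccl7 being at least 2-fold higher at 9 h. Ccl11, the eosinophil attractant eotaxin, was lower, with 387 CPM at 9 h and 1418 at 2 h in Pi16 FAPs, against 949 and 2602 in Pi16-low FAPs. Ccl8 was at 54.2 and 39.0, within 2-fold. Of 6 other chemokine genes measured, Cxcl13 was higher at 9 h and Cxcl10, an interferon-induced attractant of T cells, lower, with 19.4 CPM at 9 h and 81.6 at 2 h in Pi16 FAPs.

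All 4 ELR CXC chemokine genes, which encode ligands of the neutrophil receptor CXCR2, were at least 2-fold higher at 9 h in Pi16 FAPs (median log2 ratio 3.77) and in Pi16-low FAPs (5.24). Cxcl5 (chromosome 5, 90759360 to 90761624, plus strand) had the largest ratio of the named genes, with 3968 CPM (3911 to 4025) at 9 h and 18.6 (15.1 to 22.6) at 2 h, 214 times as high (175 to 264), and with 14603 and 69.5 in Pi16-low FAPs. After thinning, 38.7% of Pi16 FAPs had a Cxcl5 UMI at 9 h and 1.77% at 2 h, against 61.3% and 2.57% of Pi16-low FAPs and 11.1% and 0.114% of neutrophil-type cells. Cxcl5 also followed the Pi16 bands at 9 h, with 7340 CPM at 2 to 4 Pi16 UMIs, 3397 at 5 to 19 and 1924 at 20 or more. Cxcl1 had 2567 CPM at 9 h and 1101 at 2 h in Pi16 FAPs, against 6669 and 1508 in Pi16-low FAPs.

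Cxcl3 was at 1054 and 18.7 CPM in Pi16 FAPs, against 1538 and 12.8, and Cxcl2 at 1190 and 227, against 3751 and 169. Neutrophils also make both. Neutrophil RNA, at the share set by the neutrophil gene S100a8, would bring 418 of the 1190 CPM of Cxcl2 at 9 h and 64.4 of the 227 at 2 h, and for Cxcl3 56.2 of 1054 and 4.54 of 18.7. The estimate was 3.24 of 6527 CPM for Ccl2 at 9 h and 3.01 of 3968 for Cxcl5. At 9 h the ELR CXC genes had a median log2 ratio of -1.51 in Pi16 over Pi16-low FAPs, with 3 of 4 at least 2-fold lower, and at 2 h of -0.06, with 1 of 4 lower.

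**Figure D3:**
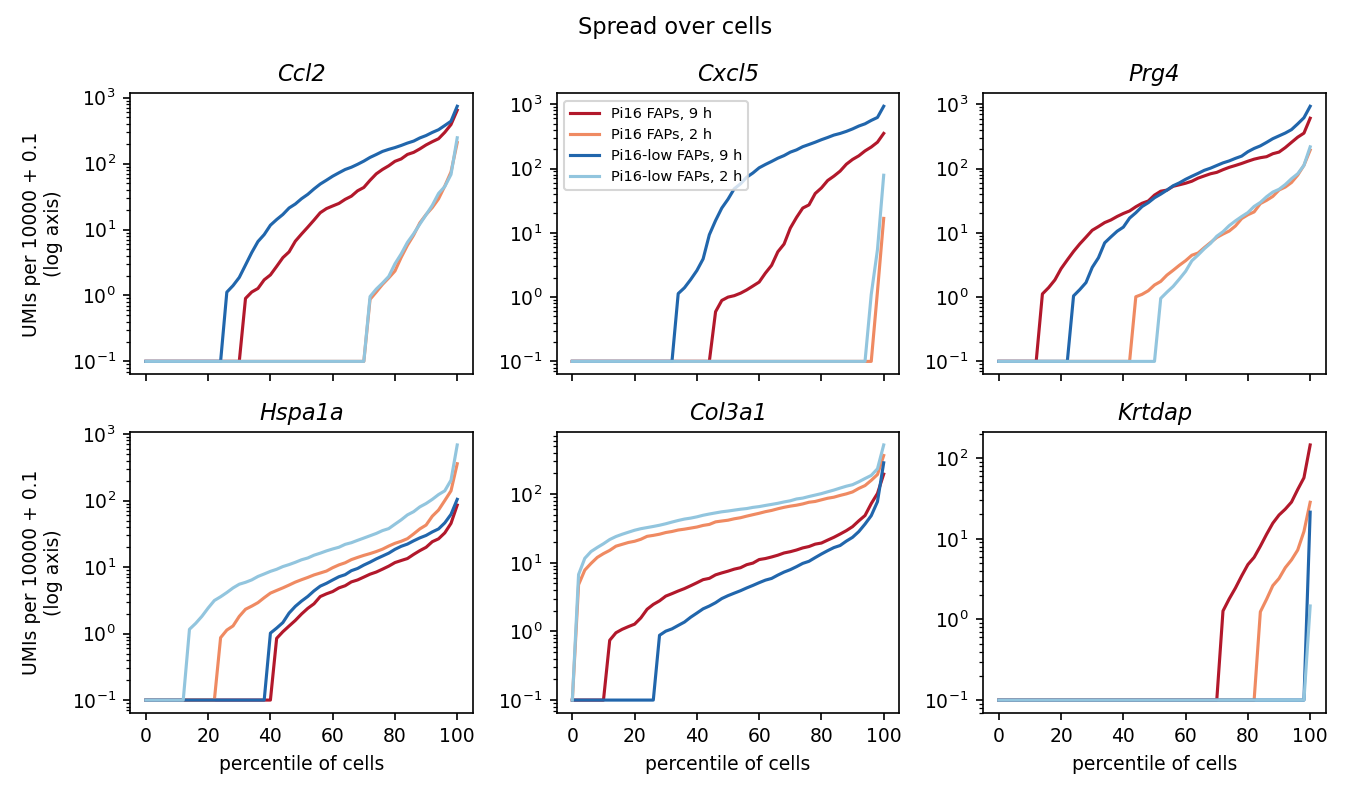
UMIs per 10000 of 6 genes (log axis, 0.1 added) against the percentile of cells, for Pi16 FAPs at 9 h and 2 h and Pi16-low FAPs at 9 h and 2 h. The curves show how many cells carry a gene and how unevenly: the median Pi16 FAP has 8.45 Ccl2 UMIs per 10000 at 9 h and 0 at 2 h, and 7.45 and 41.6 of Col3a1.

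Of 14 cytokine genes, 10 were measured in Pi16 FAPs, 3 of them at least 2-fold higher at 9 h and 0 lower (median log2 ratio 0.67). In Pi16-low FAPs 6 of 13 measured were higher and 0 lower (0.95). Over all genes 7.57% were higher in Pi16 FAPs. Il33, the gene of an alarmin released by damaged stromal cells, was at 1518 CPM (1483 to 1554) at 9 h and 287 (272 to 301) at 2 h, and at 2225 and 211 in Pi16-low FAPs. Its receptor gene Il1rl1 was at 409 and 11.5, against 532 and 2.86 in Pi16-low FAPs, but few cells held it: 10% of the Pi16 FAPs had 97.5% of the Il1rl1 UMIs at 9 h. Csf1, the macrophage growth factor gene, was at 775 and 248, against 840 and 226. Il1b was at 89.3 and 34.6, of which neutrophil RNA at the S100a8 share would bring 73.1 and 23.1. Il6 hardly differed between the times in Pi16 FAPs, with 251 CPM (237 to 266) at 9 h and 259 (245 to 273) at 2 h, and was at 558 and 341 in Pi16-low FAPs.

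Among the other genes with the largest ratios in Pi16 FAPs were acute-phase, metabolic and matrix genes. Saa1, an acute-phase apolipoprotein gene, was at 196 CPM at 9 h and 1.70 at 2 h, and at 666 and 13.8 in Pi16-low FAPs, though reads shared with its near-identical copy Saa2 make its level uncertain. Angptl4, an inhibitor of lipoprotein lipase, was at 278 and 13.4, the metallothionein gene Mt4 at 103 and 2.84, and the metalloproteinase inhibitor gene Timp1 at 862 (835 to 889) and 104 (95.4 to 113). Prg4, which encodes the lubricant lubricin, was at 7757 and 1390, against 10400 and 1275 in Pi16-low FAPs. Cxcl13, a B cell attractant, was at 540 (519 to 562) and 102 (94.0 to 111), and at 208 and 55.9 in Pi16-low FAPs, so its level was higher in the Pi16 cells at both times. Igfbp3, Mif and C1qbp had log2 ratios of 2.69, 2.45 and 2.42.

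Ribosome biogenesis genes were higher at 9 h as a group: of 19 measured, 16 were at least 2-fold higher and 0 lower (median log2 ratio 1.70, and 1.91 in Pi16-low FAPs with 18 higher). Npm1, a nucleolar chaperone gene, was at 2159 CPM in Pi16 FAPs at 9 h and 442 at 2 h, and the nucleolin gene Ncl at 1622 and 363. Of 13 measured metal and redox genes 5 were higher and 1 lower, and in Pi16-low FAPs 4 and 0. Over all genes 7.57% were higher and 8.33% lower in Pi16 FAPs. Mt2 was at 19696 and 8638 CPM, and Hmox1, the haem-degrading enzyme gene, at 541 and 151, against 341 and 205 in Pi16-low FAPs. Of 13 measured hypoxia and glycolysis genes 4 were higher, among them Ldha with 676 and 179, and 1 was lower. In Pi16-low FAPs 3 of these 13 were higher and 1 lower.

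Matrix genes that build fibrils and basement membrane were lower at 9 h. Of the 8 fibril collagen genes 7 were at least 2-fold lower in Pi16 FAPs and 0 higher (median log2 ratio -1.85), and likewise 7 in Pi16-low FAPs (-2.70). Col3a1 was at 1395 CPM (1361 to 1429) in Pi16 FAPs at 9 h and 5784 (5719 to 5849) at 2 h, 4.15-fold lower (4.04 to 4.26), and at 953 and 7624 in Pi16-low FAPs. Col1a1 was at 503 and 2034, against 268 and 2355. At 9 h the levels of both were higher in Pi16 than in Pi16-low FAPs and at 2 h lower, each within 2-fold. Of 13 basement membrane genes 11 were lower in each (median -1.31 in Pi16 FAPs and -1.94 in Pi16-low FAPs), with Col15a1 at 9.47 CPM at 9 h and 331 at 2 h in Pi16 FAPs.

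Elastic fibre genes divided. Of 18 measured, 10 were at least 2-fold lower at 9 h in Pi16 FAPs and 2 higher, with the elastin gene Eln at 16.4 CPM at 9 h and 192 at 2 h. The lower ones also held the cross-linking enzyme gene Loxl2 and the binding protein gene Ltbp4, and the higher ones were other members of these 2 families. Lox, which encodes the enzyme that cross-links elastin and collagen, was at 692 and 185, and Ltbp2, which binds fibrillin, at 20.2 and 2.27. Fbn1, the fibrillin gene, was at 694 and 1806 in Pi16 FAPs, against 330 and 815, and so stayed above its Pi16-low level at both times. Hyaluronan genes were lower too: the synthase gene Has1 was at 358 and 1325, and Tnfaip6, which modifies hyaluronan, at 365 and 2609. Ptx3, the pentraxin that binds to this matrix, was at 6074 at 9 h and 1747 at 2 h, and the tenascin gene Tnc at 78.8 and 3.03, against 308 and 4.53 in Pi16-low FAPs. Mmp3, a matrix protease gene, was at 206 and 51.5, against 669 and 119.

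Most immediate early genes and some heat shock genes were at least 2-fold lower at 9 h than at 2 h in Pi16 FAPs. Of 23 immediate early genes, which respond within minutes to a stimulus, 14 were at least 2-fold lower in Pi16 FAPs and 2 higher (median log2 ratio -1.16). In Pi16-low FAPs 17 were lower and 2 higher (-1.66). Fos was at 273 CPM in Pi16 FAPs at 9 h and 1162 at 2 h, with 291 and 2037 in Pi16-low FAPs, and Atf3 at 62.0 and 563. The higher ones were Ier3 (291 and 108) and Fosl1 (152 and 59.8). Of 11 heat shock genes 5 were lower and 1 higher (median -0.92), and in Pi16-low FAPs 9 were lower and 0 higher (-1.67). The shares lower over all genes were 8.33% in Pi16 FAPs and 10.4% in Pi16-low FAPs. At 2 h the heat shock genes were lower in Pi16 than in Pi16-low FAPs, with a median log2 ratio of -0.80. At that time 1 of 11 was past 2-fold, against 0.899% of all genes lower. Hspa1a was at 699 (675 to 723) and 1832 (1796 to 1869) in Pi16 FAPs, against 989 and 3178, and Hspb1 at 1055 and 1517, against 517 and 2224. Reads of Hspa1a and its near-identical neighbour Hspa1b may have been split between them, so the level of either is uncertain. Hspd1, a mitochondrial chaperone gene, was the one higher at 9 h in Pi16 FAPs (647 and 267).

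Interferon-response genes were lower at 9 h in 6 of 20 measured cases in Pi16 FAPs (median log2 ratio -0.71) and in 17 of 20 in Pi16-low FAPs (-1.28), and 0 were higher in either. Over all genes 8.33% were lower in Pi16 FAPs and 10.4% in Pi16-low FAPs. At 9 h the interferon-response genes were higher in Pi16 than in Pi16-low FAPs, with a median log2 ratio of 0.84 (0.77 with TMM scaling) and 3 of 18 past 2-fold. At 2 h the median was -0.02 with 0 of 20 past 2-fold. Gbp2, a guanylate-binding protein gene, was at 160 CPM (149 to 172) in Pi16 FAPs at 9 h and 118 (109 to 128) at 2 h, against 71.2 and 162 in Pi16-low FAPs. Iigp1, an immunity-related GTPase gene, was at 186 and 344, against 78.9 and 472, and Isg15 at 34.0 and 92.8, against 13.0 and 73.4. Few cells carried Iigp1, since 10% of the Pi16 FAPs had 87.2% of its UMIs at 9 h and 69.2% at 2 h.

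**Figure D4:**
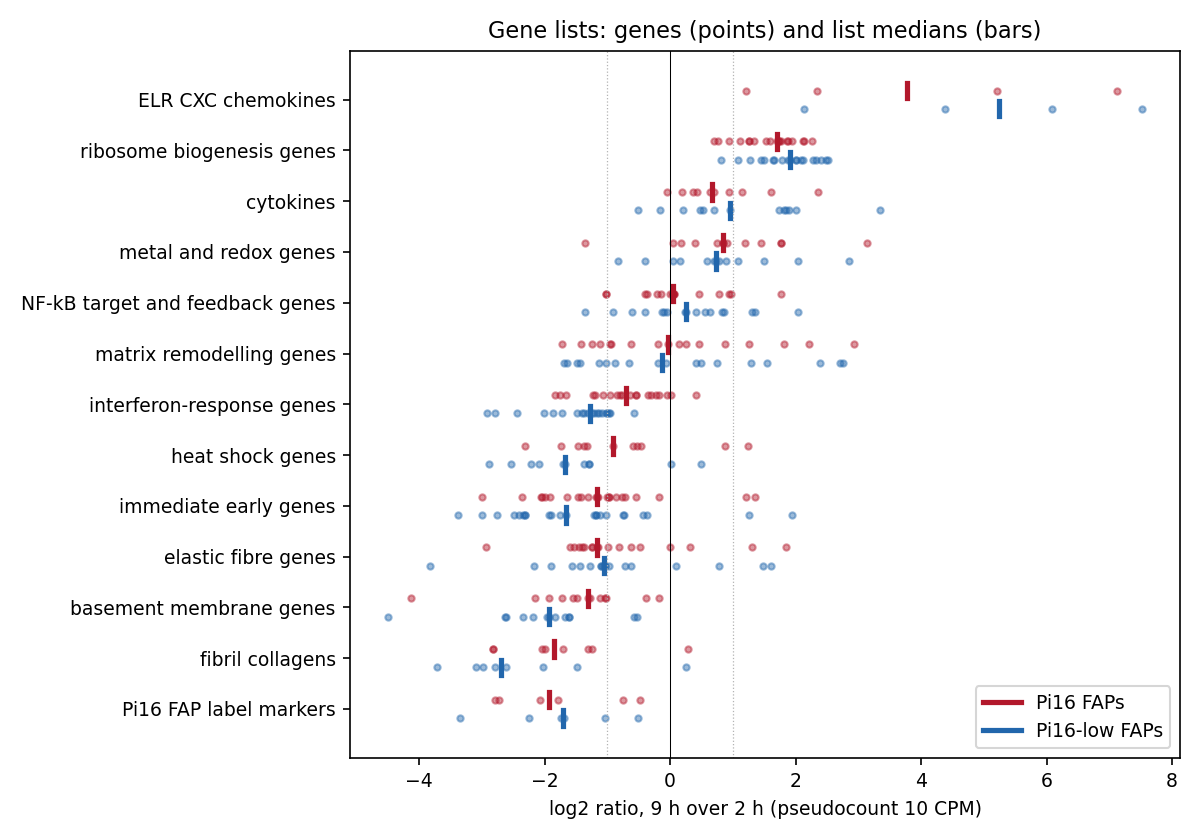
Log2 ratio of 9 h over 2 h for the genes of 13 lists (points) and the list median (bars), in Pi16 FAPs (upper row of each list) and Pi16-low FAPs (lower row). Dotted lines mark 2-fold. The fibril collagens have medians of -1.85 in Pi16 FAPs and -2.70 in Pi16-low FAPs, and the ribosome biogenesis genes 1.70 and 1.91.

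Many adventitial and general FAP genes were lower at 9 h to different degrees, in both kinds of FAP. Of the 33 further adventitial genes, all measured in Pi16 FAPs, 17 were at least 2-fold lower at 9 h and 2 higher (median log2 ratio -1.07). In Pi16-low FAPs 18 of 31 measured were lower and 3 higher (-1.23). The higher ones in Pi16 FAPs were Il33 and Aldh1a3. Tppp3, a microtubule-binding protein gene known from tendon and fascia progenitors, was at 8.39 CPM (5.97 to 11.5) at 9 h and 380 (364 to 397) at 2 h, 45.3-fold lower (33.0 to 63.9), and at 6.67 and 369 in Pi16-low FAPs. Smpd3, a sphingomyelinase gene, was at 9.47 and 180, against 3.47 and 30.4, and the transcription factor gene Creb5 at 56.2 and 606, against 16.6 and 367. Igfbp6 was at 1528 and 2617, against 473 and 1358. Of the FAP genes in general, Pdgfra was at 387 and 420 CPM in Pi16 FAPs, Dcn at 7223 and 13401, both used in the gate, and the surface sialomucin gene Cd34 at 162 (151 to 174) and 955 (929 to 982), against 42.4 and 673. Abca8a, Angptl1, Gas1, Efhd1, Cilp, Antxr1, Col5a3 and Col5a1 completed the 15 genes with the lowest ratios, with log2 ratios of -3.81 to -2.82.

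For 80 of 9237 genes (0.866%) the 9 h over 2 h ratio in Pi16 FAPs differed at least 2-fold from that in Pi16-low FAPs, 48 with the higher ratio in Pi16 FAPs (0.520%) and 32 with the lower (0.346%). With TMM scaling these were 27 and 45. Krtdap had the largest difference upward (log2 difference 1.90), with 10 CPM added to each level. Its levels in Pi16-low FAPs lay below these 10 CPM, so the difference rests on them. Without them the 9 h over 2 h ratio of Krtdap was larger in Pi16-low FAPs, on very few UMIs at 2 h. Fhl1, a LIM domain protein gene, came next, with 66.1 CPM in Pi16 FAPs at 9 h and 224 at 2 h, and 7.42 and 153 in Pi16-low FAPs. Iigp1, Hspb1, Gask1b, Gbp2, Tsc22d3 and Klf2 made up the rest of the 8 highest, with differences of 1.30 to 1.59. These genes were lower at 9 h in Pi16-low FAPs by log2 ratios of -2.44 to -1.08, and lay between -1.01 and 0.41 in Pi16 FAPs.

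At the other end stood Cxcl2 (log2 difference -2.05), Limch1, Smpd3, Tnc, Saa2, Aldh1a3, Car8 and Pgf. Limch1, an actin-binding protein gene, was at 34.2 CPM at 9 h and 107 at 2 h in Pi16 FAPs, but at 22.1 and 13.3 in Pi16-low FAPs. Car8, a gene of the carbonic anhydrase family, was at 35.5 and 122, against 2.72 and 4.65. Both Pi16-low levels of Car8 lay below the 10 CPM added to each level, so the size of its difference rests partly on them. Pgf, the placental growth factor gene, was at 147 and 83.7, against 282 and 59.6. By list, 5 of 31 further adventitial genes (Limch1, Smpd3, Aldh1a3, Cmah and Efhd1) had the lower ratio in Pi16 FAPs and 0 the higher. Of the interferon-response genes, 6 of 20 had the higher ratio in Pi16 FAPs and 0 the lower (median difference 0.65, against 0.03 over all genes), and the fibril collagens had a median difference of 0.81 with 2 of 8 past 2-fold. No gene was at least 2-fold higher at 9 h in one kind of FAP and at least 2-fold lower in the other.

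**Figure D5:**
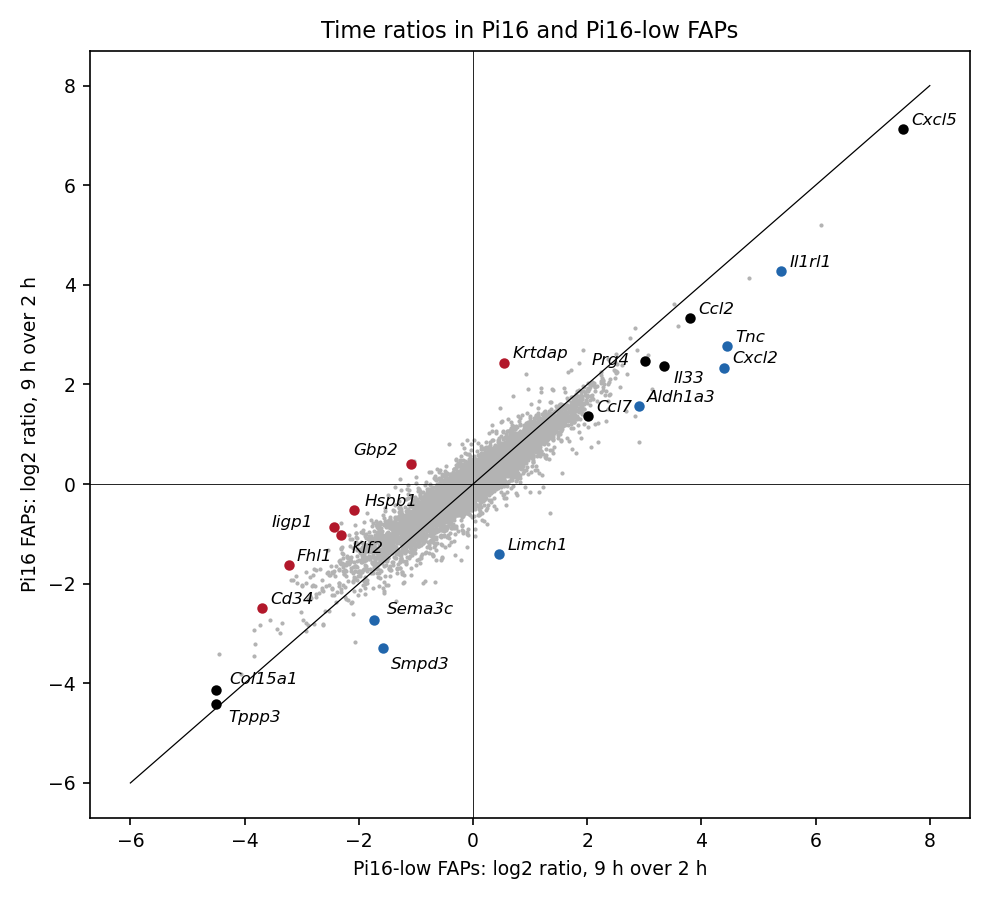
Log2 ratio of 9 h over 2 h in Pi16 FAPs (vertical axis) against that in Pi16-low FAPs (horizontal axis), for genes measured in both, with the line of equal ratios. Red points are labelled genes with a ratio at least 2-fold higher in Pi16 FAPs and blue points at least 2-fold lower. Krtdap stands above the line with 2.44 in Pi16 FAPs and 0.54 in Pi16-low FAPs, and Limch1 below it with -1.40 and 0.46. The levels of Krtdap in Pi16-low FAPs are below the 10 CPM added to each level, so its place rests on them.

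Markers of other cells were low in Pi16 FAPs, except those of neutrophils and, at 2 h, the endothelial gene Tek. All 6 neutrophil genes had a UMI, with a summed level of 847 CPM in Pi16 FAPs at 9 h and 378 at 2 h, of 1086 and 430 in Pi16-low FAPs and 90906 and 103515 in the neutrophil-type cells. The 7 monocyte or macrophage genes summed to 17 CPM at 9 h and 114 at 2 h in Pi16 FAPs, and to 25.6 and 59.1 in Pi16-low FAPs. The 6 endothelial genes summed to 25.2 and 145, and to 18.1 and 70.0 in Pi16-low FAPs. Most of the endothelial sum was Tek (18.7 and 139), which after thinning had a UMI in 3.64% of Pi16 FAPs at 9 h and 21.5% at 2 h, against 0.0976% and 0.915% of neutrophil-type cells. Egfl7 was at 0 at 9 h. The 8 tenocyte genes, which the gate limits, summed to 77.5 and 110, the 6 mural genes to 18.5 and 20.1 and the 5 satellite cell genes to 14.4 and 36.9, with Pax7, Myf5, Myod1 and Chodl at 0 at 9 h. The 5 lymphocyte genes summed to 2.80 and 3.22 with Cd3e, Cd3g, Ms4a1 and Nkg7 at 0 at both times, the 6 Schwann or perineurial genes to 2.37 and 3.79 with Sox10 at 0 at both times, and the 5 mesothelial genes to 1.51 and 3.60 with Msln and Lrrn4 at 0. A count of 0 allows a level of up to 0.646 CPM in Pi16 FAPs at 9 h and 0.568 at 2 h. Neutrophil markers thus moved with the chemokines between the times, and their part in the chemokine results beyond the S100a8 estimate was not tested.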

How the data were processed

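The deposited values are raw UMI counts of each gene in each barcode. Per the submitters' processing notes, Cell Ranger 5.0.0 and the mm10 build were used. Aligner settings, annotation release and animals per library: not given in the sources used here. From the counts, cells were filtered and gated as given above, with no doublet caller and no clustering. Counts were summed over Pi16 and Pi16-low FAPs of each library and scaled to CPM. Log2 ratios used a pseudocount of 10 CPM and genes with at least 50 UMIs over the compared cells. A gene was called at 2-fold. With 1 library per time no test was made. Exact 95% intervals cover counting error only. UMIs of a cell are not independent, so an interval is narrower than it should be for a gene held mostly by few cells. For shares of cells with a UMI, each cell was thinned to 2000 UMIs (seed 0), leaving out 2 Pi16 FAPs at 9 h and 5 at 2 h. Neutrophil-type cells had a Ptprc UMI, a Csf3r or S100a8 UMI and 0 Csf1r and Pdgfra UMIs, the last 2 conditions being added after the files had been seen. Gene positions are those of GENCODE M21.

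Members and 34 gene lists were chosen with earlier results of these data known. Named genes were the 15 highest and 15 lowest time ratios (at least 100 CPM at 1 time), the 15 highest and 10 lowest Pi16 over Pi16-low ratios by the weaker time (at least 100 CPM in the higher group at both times), the 8 highest and 8 lowest differences of the time ratio (at least 100 CPM in 1 group at 1 time), the label markers, the gate genes, Ccl2 and Ccl7, and up to 5 genes a list by level or ratio. Genes that make up a count of 5 or fewer were also named, after their values were seen. The highest and lowest genes leave out mitochondrial, ribosomal protein and haemoglobin genes, unnamed gene models and genes whose level was under 20% of that over all kept cells. Counts were simulated as independent Poisson sums for the comparison of the times (9316 genes, 50 per fold). The ratio's interval covered the fold put in for 98% of genes lowered to 0.25, 92% lowered to 0.5, 94% raised 2-fold, 98% raised 4-fold and 95.9% left unchanged. The interval assumes the same model, so this checks the computation only and not the spread between cells. Of genes raised 2-fold or lowered to 0.5, 4% each were called. The shares called were 86% of those raised 4-fold and 88% of those lowered to 0.25. Alternatives were other Pi16 minimums, a gate on 3 of the 5 other label markers, gating after thinning, a 10% mitochondrial limit, leaving out the deepest cells, TMM scaling, means over cells, other pseudocounts, filters and thinning depths. Added after seeing the data were leaving out shared barcodes and dropping the Pdgfra minimum. Python 3.11.15, numpy 2.4.6, scipy 1.17.1, pandas 2.3.3, matplotlib 3.10.9, R 4.3.3 and edgeR 4.0.16 (TMM only) were used.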

Additional observations from a re-analysis of the deposited data

Results flagged for a closer look

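Pi16 was also read in kept cells outside the FAP gate, in numbers that the comparisons above do not use. At 9 h 222 such cells had at least 2 Pi16 UMIs, with 22.8% of all Pi16 UMIs of kept cells, and at 2 h 312 cells, with 26.0%. Of these, 183 at 9 h and 256 at 2 h had no Pdgfra UMI, 76 and 132 had under 10 Dcn UMIs, and 47 and 155 had more than 1 UMI of Ptprc and Cdh5 (a cell can fail on more than 1 count). Their median depth was 6683.5 UMIs at 9 h and 6425 at 2 h, below that of the Pi16 FAPs.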

How the results depend on the processing

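No log2 ratio or list median of at least 1 in size changed sign under any alternative. Some alternatives moved little: a 10% mitochondrial limit, no filter or one of 200 UMIs, means over cells, no shared barcodes and no Pdgfra minimum. Under these, counts stayed within 1.5 times, shares within their 95% interval and list medians within the spread of the list's middle genes. For the label markers, ELR CXC chemokines and fibril collagens, that spread was the whole range of the list. A median can hardly leave such a range, so for these short lists the check says little. The balance of higher and lower calls did turn. With TMM scaling 720 genes were higher and 715 lower at 9 h than at 2 h, and for the time ratio 27 and 45. The median over all genes went below 0 with TMM scaling (-0.07 against Pi16-low FAPs at 9 h) and with no filter (-0.02 between the times). At a minimum of 1 Pi16 UMI the members were 35.4% of FAPs at 9 h and 48.6% at 2 h, 40 genes were lower than in Pi16-low FAPs at 2 h, and 26 genes had the higher time ratio. At 3 UMIs the shares were 23.1% and 31.4%, the Cxcl5 share at 9 h was 33.4%, and the 2 h heat shock median -0.93. Gated after thinning, the 9 h share was 24.0% and its Ccl2 share 53.9%. Gated on 3 of the 5 other markers, the members were 18.3% at 9 h and 49.7% at 2 h. Of 113 log2 ratios of named genes, 66 then lay outside the range around the main value. That range was the counting interval, or a fixed width for a difference of time ratios. At 1 Pi16 UMI 42 of the 113 lay outside, at 3 UMIs 22, at a pseudocount of 50 CPM 87 and at 1 CPM 38. Over all alternatives 369 such ratios moved and 1213 did not. Without the 5% deepest FAPs the 9 h Ccl2 share was 54.1% and the 2 h parenchymal median -1.33. With TMM scaling 119 genes were also lower than in Pi16-low FAPs at 9 h. Thinned to 1000 UMIs the 9 h Ccl2 share was 52.5%, and unthinned 69.6% (28.6% at 2 h, and 54.4% for Cxcl5 at 9 h). The pseudocount moved counts most. At 1 CPM, 1265 genes were higher and 1431 lower at 9 h than at 2 h, 445 higher and 237 lower than in Pi16-low FAPs at 9 h, 249 and 306 at 2 h (more lower than higher, unlike at 10 CPM), and 269 and 94 had the higher and lower time ratio. The ribosome median was then 1.94 and the 9 h interferon median against Pi16-low FAPs 1.32. At 50 CPM these counts were 185 and 217, 55 and 25, 40 and 26, and 11 and 11. The medians were then 1.06 (ribosome), -0.30 (interferon between the times), 0.33 (interferon against Pi16-low FAPs at 9 h), and 0.84 at 9 h and 0.92 at 2 h (adventitial). A larger pseudocount shrinks every ratio by construction, and the cause of the other moves was not tested. No paired analysis was possible because each time has 1 library. With 1 library a time, animal, batch and time cannot be told apart, and low genes are limited by depth.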

Other observations

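Most growth factor and Wnt genes were within 2-fold between Pi16 and Pi16-low FAPs. Of the growth factor genes measured, 1 of 19 at 9 h and 3 of 18 at 2 h were at least 2-fold higher in Pi16 FAPs, and 0 lower, against 1.66% and 1.47% higher over all genes. Of the Wnt and BMP genes, 2 of 12 were higher at 9 h and 0 lower, and 4 of 14 higher at 2 h and 1 lower. The lower one was Sfrp1, at 21.5 CPM in Pi16 FAPs at 9 h and 42.6 at 2 h, and at 22.4 and 95.6 in Pi16-low FAPs. Vegfd, a lymphatic growth factor gene, was at 40.2 CPM in Pi16 FAPs at 9 h and 67.6 at 2 h, and at 5.82 and 16.8 in Pi16-low FAPs. Wnt2 was at 45.2 and 28.6, against 17.1 and 1.19, and the Wnt modulator gene Sfrp2 at 45.4 and 128, against 9.30 and 39.8. Between the times, Fst, which encodes the activin inhibitor follistatin, and Inhba, which encodes an activin subunit, were at least 2-fold higher at 9 h in Pi16 FAPs, and Wnt11 and Wnt5a lower. Of the 12 Wnt and BMP genes measured, 3 were lower and 0 higher.

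Adipogenic and fibrogenic genes went both ways between the times. Of 8 measured adipogenic genes 1 was at least 2-fold higher at 9 h in Pi16 FAPs and 2 lower, against 15.9% of all genes past 2-fold in either direction. Plin2, a lipid droplet gene, was at 124 and 33.7 CPM, against 268 and 86.1 in Pi16-low FAPs, and the lipoprotein lipase gene Lpl at 126 and 643, against 291 and 1420. Of 9 fibrogenic and contractile genes 3 were higher and 2 lower. Of 17 NF-kB target and feedback genes 1 was higher and 2 lower (median log2 ratio 0.05). Of 13 complement and acute-phase genes 4 were higher and 2 lower, with the complement gene C3 at 1685 and 2797 CPM, against 723 and 1878 in Pi16-low FAPs.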
